A study of Mus musculus with 13 samples.

Results

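Mitf, Sox10, Pax3, Tfap2a, Lef1, Kit, Mc1r and Ednrb, 5 transcription factors and 3 surface receptors of the melanocyte lineage, were followed in mouse melanomas treated with targeted drugs and transferred T cells. The members were taken by symbol: 20 of the 34945 probe sets that carry 1 gene symbol name 1 of these genes and no other, so the set is 8 of 18193 genes, and all 8 were among the 13785 genes tested. The tumours were SM1, a transplantable melanoma with an activating BRAF mutation, grown in C57BL/6 mice that had received splenocytes by adoptive cell transfer. In pmel-1 recipients the donors were pmel-1 mice, in which T cells are made to recognise the melanosome protein encoded by Pmel. These mice were given dabrafenib and trametinib together (3 arrays), dabrafenib, a BRAF inhibitor (2 arrays), trametinib, a MEK inhibitor (2 arrays), or vehicle (2 arrays). Control recipients received C57BL/6 splenocytes and were given both drugs (2 arrays) or vehicle (2 arrays). Every tumour therefore came from a mouse with transferred splenocytes of some kind, every array measured whole tumour, and neither doses, times nor the animals behind the replicates are given in the sources used here.

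Mitf is the central transcription factor of pigment cells and drives the genes of melanin synthesis, melanosome transport and survival. Sox10 and Pax3 act upstream of it in the neural crest and in melanoblasts, Tfap2a acts beside it at melanocyte genes, and Lef1 carries the Wnt signal through beta-catenin. The receptors feed the same circuit: Kit binds stem cell factor, Mc1r binds melanocortins and raises cyclic AMP, and Ednrb binds endothelins, which guide melanoblast migration. In BRAF-mutant melanoma the MAPK pathway is known to restrain parts of the pigment programme. The comparisons therefore ask how each regulator differed with inhibition of that pathway and with pmel-1 in place of control splenocytes.

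Values are deposited log2 intensities, so a difference of 1 is a doubling, and levels of different probe sets cannot be ranked against each other. Changes are given on the log2 scale ± SE from a limma fit over all 13 arrays, and a gene is said to rise, fall or change where its Benjamini-Hochberg adjusted p over all genes tested was under 0.05. The number of arrays limits the precision, and since the replicates are not stated to be separate animals, the p-values speak only to the spread among these arrays. The melanocyte label held in every group: Dct, Mlana, Pmel and Tyr, of the 5 identity markers listed, read from 12.34 to 14.93 on all arrays, while Tyrp1 read from 4.87 to 6.38. RNA quality moved with the groups. The 3′ minus 5′ difference of the beta-actin and GAPDH array controls averaged 1.08 ± 0.38 (SD, n = 7; 0.60 to 1.65) over the drug-treated tumours of pmel-1 recipients and 0.26 ± 0.09 (SD, n = 6; 0.18 to 0.42) over all others, a difference of 0.83 (two-sided exact permutation p = 0.0012, the smallest the design allows). This split of the arrays was chosen with earlier results of these data known, so its p is only a description. In pmel-1 recipients drug treatment therefore cannot be told apart from the 3′ minus 5′ difference. In control recipients the combination and vehicle arrays overlapped in it. Adipoq, a fat cell hormone, stood apart on 3 arrays of pmel-1 recipients, at 10.05 in replicate 2 of the combination, 10.32 in replicate 2 of dabrafenib and 9.30 in replicate 1 of trametinib, and Acta1, a muscle actin, at 9.90 in control vehicle replicate 3.

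Promoter sequence is shown for the 4 members whose results the text turns on and for which RefSeq gives a start, because several transcription factors of the set, or of their families, read short motifs. Of the 8 members 6 have an entry in the RefSeq promoter table (GRCm38.p6), with 13 starts in all, and Sox10 and Pax3 are not among them. Each line gives the 250 bases before the start, 5′ to 3′ on the gene's strand, with motif matches in capitals. The Mitf line is the most downstream of 3 starts at chr6:97991533-97991782 (plus strand), Mc1r is at chr8:123406832-123407081 (plus), Kit at chr5:75574737-75574986 (plus) and Ednrb at chr14:103843702-103843951 (minus).
Mitf: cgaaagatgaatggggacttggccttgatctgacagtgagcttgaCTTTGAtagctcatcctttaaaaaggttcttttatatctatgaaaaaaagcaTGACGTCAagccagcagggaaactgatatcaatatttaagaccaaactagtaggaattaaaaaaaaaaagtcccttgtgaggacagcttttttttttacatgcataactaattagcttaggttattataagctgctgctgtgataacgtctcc
Mc1r: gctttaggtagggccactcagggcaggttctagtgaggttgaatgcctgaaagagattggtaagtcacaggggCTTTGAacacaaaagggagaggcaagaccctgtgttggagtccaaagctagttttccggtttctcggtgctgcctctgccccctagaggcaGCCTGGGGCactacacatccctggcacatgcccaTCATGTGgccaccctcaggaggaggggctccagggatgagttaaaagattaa
Kit: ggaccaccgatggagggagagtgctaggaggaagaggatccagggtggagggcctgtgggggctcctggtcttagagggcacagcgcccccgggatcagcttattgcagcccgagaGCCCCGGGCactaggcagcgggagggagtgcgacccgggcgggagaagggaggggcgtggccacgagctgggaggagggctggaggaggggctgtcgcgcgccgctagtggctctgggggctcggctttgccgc
Ednrb: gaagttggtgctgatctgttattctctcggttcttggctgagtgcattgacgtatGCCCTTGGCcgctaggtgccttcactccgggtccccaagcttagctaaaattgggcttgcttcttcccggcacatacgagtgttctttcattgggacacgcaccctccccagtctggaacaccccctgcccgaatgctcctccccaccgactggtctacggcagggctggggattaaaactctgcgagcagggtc

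In the Mitf window the capitals mark a cyclic AMP response element, TGACGTCA, whose first base lies at -153 from the start, and a LEF/TCF motif, CTTTGA, at -205. In the Mc1r window they mark a LEF/TCF motif at -177, an AP-2 motif at -86 and the M box TCATGTG, an extended E box bound by MITF-type factors, at -52. Kit holds an AP-2 motif, GCCCCGGGC, at -134 and Ednrb another, GCCCTTGGC, at -195. Kit has a second start, not shown, whose window holds the same motif at -138. The motifs were searched on both strands. Of the 32851 promoter windows of this length, 1.55% hold the cyclic AMP element TGACGTCA, 3.25% the M box TCATGTG and 6.02% the plain E box CACGTG. The LEF/TCF motif CTTTGA is in 13.8% of them, the SOX motif ACAAAG in 16.5% and the AP-2 motif GCCNNNGGC in 13.7%. A match describes these letters and is not a bound site. The windows of the other Mitf starts, not shown, hold no match to any of these motifs. Which of the Mitf starts the probe sets read was not determined here.

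With dabrafenib and trametinib together, Ednrb, Mc1r, Mitf, Sox10 and Pax3 rose and Kit fell, while Tfap2a and Lef1 did not pass the test. Across recipients (5 combination arrays against 4 vehicle arrays) Ednrb rose by 1.62 ± 0.09 (3.08-fold, adjusted p = 2.14e-07), Mc1r by 0.98 ± 0.13 (adjusted p = 7.38e-05), Mitf by 0.58 ± 0.07 (1.49-fold, adjusted p = 2.53e-05), Sox10 by 0.38 ± 0.07 (adjusted p = 0.000797) and Pax3 by 0.37 ± 0.12 (adjusted p = 0.021). Kit changed by -2.09 ± 0.21 (adjusted p = 1.18e-05). That is 6 of 8 members called, against 52.6% of all genes tested (28.1% up and 24.5% down), so passing the test does not by itself set the members apart. By size, 66 of the 13785 genes fell more than Kit, and 218 rose more than Ednrb, 718 more than Mc1r, 1837 more than Mitf, 2911 more than Sox10 and 2956 more than Pax3. Of the members that did not pass, 3710 genes had a higher change than Tfap2a and 9220 a higher one than Lef1. The members' median change was 0.38, beside 0.01 over all genes tested. In whole tumour, fewer cells of a type and less RNA per cell cannot be told apart.

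Among the transcription factors, Mitf was the most regular. Its probe set of highest mean (1455214_at) read 13.36, 13.47 and 13.49 in pmel-1 tumours given both drugs, 13.47 and 13.38 with dabrafenib and 13.46 and 13.47 with trametinib, against 12.91 and 13.04 with vehicle. In control recipients it read 13.66 and 13.60 with both drugs, against 12.91 and 12.98 with vehicle. All 9 drug-treated arrays lay above all 4 vehicle arrays, and the 3 drug groups of pmel-1 recipients overlapped one another. The change was 0.47 ± 0.09 in pmel-1 recipients (adjusted p = 0.0013) and 0.69 ± 0.10 in control recipients (adjusted p = 0.000292). With both Mitf probe sets averaged the pmel-1 value was 0.05 (adjusted p = 0.726), since the second (1422025_at) read otherwise in these mice, as described with the probe sets.

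Sox10, the neural crest factor that keeps the glial and melanocyte lineages and activates Mitf, moved by a smaller and even amount. It read 13.44, 13.53 and 13.62 in pmel-1 combination tumours, 13.62 and 13.61 with dabrafenib and 13.51 and 13.55 with trametinib, against 13.10 and 13.21 with vehicle. Control recipients read 13.51 and 13.70 with both drugs, against 13.20 and 13.24 with vehicle. Again no drug-treated array overlapped a vehicle array. Sox10 rose by 0.37 ± 0.09 in pmel-1 recipients (adjusted p = 0.0075) and by 0.39 ± 0.10 in control recipients (adjusted p = 0.0129). In control recipients the call was lost without combination replicate 3 (0.29, adjusted p = 0.115) or vehicle replicate 1 (0.37, adjusted p = 0.0633). It was also lost there when only the arrays compared were fitted (0.39, adjusted p = 0.0542). In pmel-1 recipients it was lost without vehicle replicate 1 (0.32, adjusted p = 0.0719). Averaging all 3 Sox10 probe sets ended every call, at 0.05 in pmel-1 recipients (adjusted p = 0.870), 0.55 in control recipients (adjusted p = 0.071) and 0.30 across recipients (adjusted p = 0.109), and the 3′ minus 5′ covariate ended the one in pmel-1 recipients (0.41, adjusted p = 0.0646).

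Pax3, a paired-box factor that holds melanoblasts in a committed but undifferentiated state and binds the Mitf promoter, was less certain. It read 10.30, 10.74 and 10.61 in pmel-1 combination tumours, 10.41 and 10.55 with dabrafenib and 10.67 and 10.17 with trametinib, against 10.00 and 10.11 with vehicle. Control recipients read 10.46 and 10.33 with both drugs, against 10.20 and 10.09 with vehicle. The drug and vehicle groups did not overlap within either kind of recipient, but replicates of a drug group lay far apart, most of all with trametinib. Pax3 rose by 0.49 ± 0.16 in pmel-1 combination tumours (adjusted p = 0.0258), and its difference of 0.25 ± 0.18 in control recipients did not pass (adjusted p = 0.312). Across recipients the call was lost without pmel-1 vehicle replicate 1, control combination replicate 2 or control vehicle replicate 3 (0.34 to 0.35, adjusted p from 0.0673 to 0.0692), with all probe sets averaged (0.13, adjusted p = 0.364) and with the 3′ minus 5′ covariate (0.28, adjusted p = 0.163). In pmel-1 recipients it was lost without combination replicate 2 or 3 or without either vehicle array (0.40 to 0.54, adjusted p from 0.0649 to 0.14) and with the covariate (0.32, adjusted p = 0.404), and with all probe sets averaged it turned to -0.16 (adjusted p = 0.415).

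Tfap2a, the AP-2 alpha factor of the neural crest, varied within groups as much as between them. It read 10.40, 10.57 and 10.18 in pmel-1 combination tumours, 9.98 and 10.50 with dabrafenib and 10.26 and 10.13 with trametinib, against 10.50 and 9.86 with vehicle. Control recipients read 9.77 and 10.39 with both drugs, against 9.87 and 9.59 with vehicle. The groups overlapped in both kinds of recipient. The difference across recipients was 0.28 ± 0.17 (95% interval -0.11 to 0.66, adjusted p = 0.211).

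Lef1, the Wnt effector that T cells also use, stayed low. It read 6.26, 5.95 and 6.09 in pmel-1 combination tumours, 6.22 and 6.24 with dabrafenib and 6.10 and 6.17 with trametinib, against 6.13 and 6.22 with vehicle. Control recipients read 5.96 and 6.09 with both drugs, against 6.12 and 6.34 with vehicle. These levels are close to the filter level of 5.79, the 40th percentile of all values, and the second Lef1 probe set (1421299_a_at) read from 3.72 to 4.42, below it on every array. The difference across recipients was -0.14 ± 0.08 (95% interval -0.32 to 0.04, adjusted p = 0.191).

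**Figure D1:**
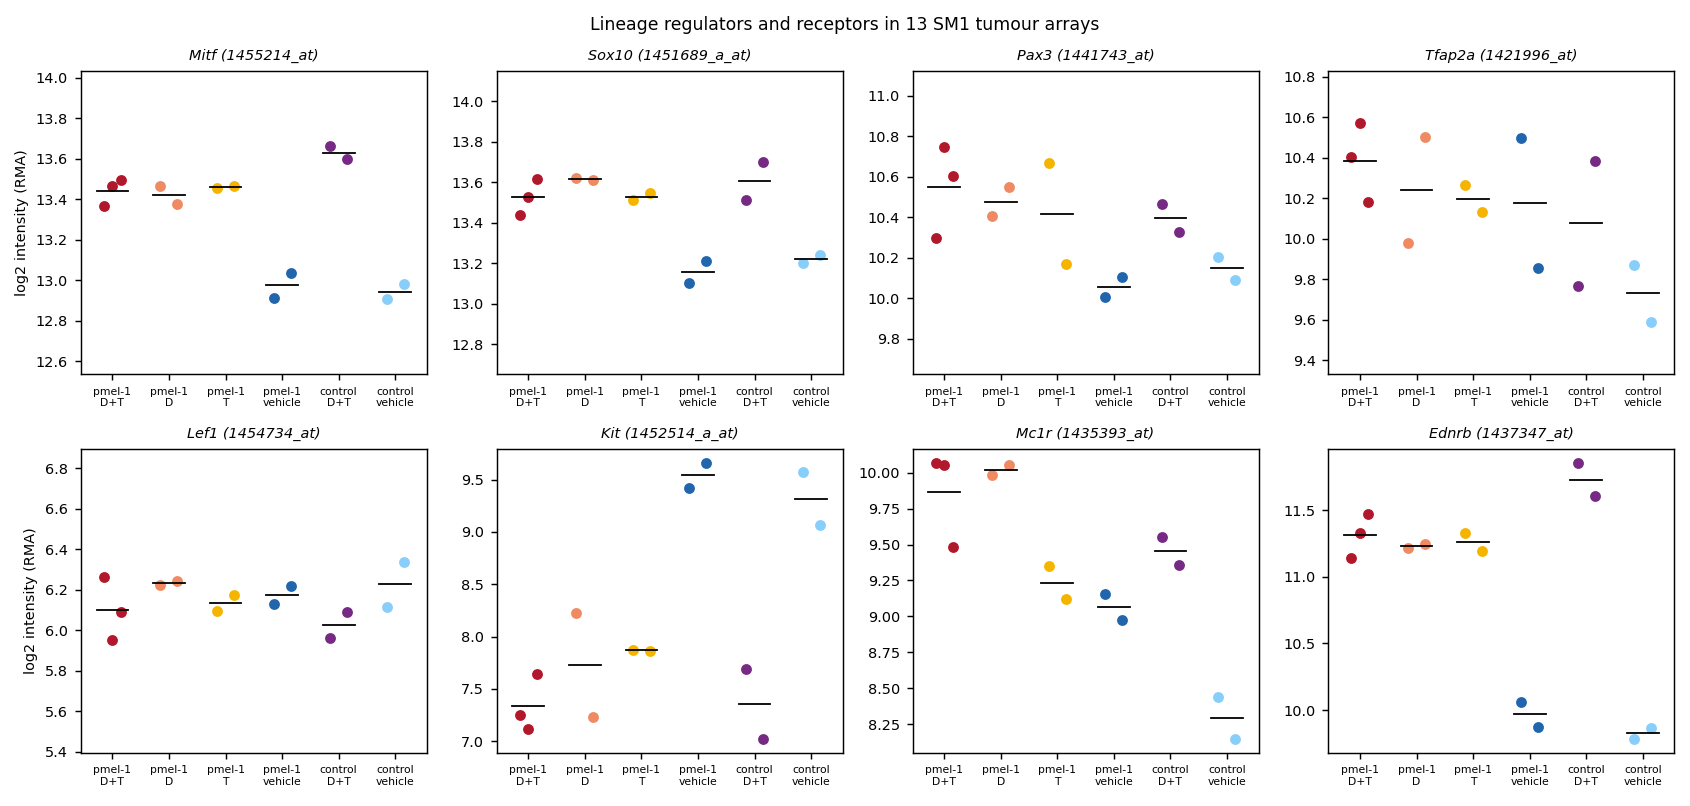
Each panel plots 1 member's log2 intensity (vertical axis) on the 13 arrays by group (horizontal axis), at the probe set of highest mean; points are arrays, bars are group means, D is dabrafenib and T trametinib, and each panel has its own axis range. Kit is lower, and Mitf, Sox10 and Ednrb are higher, on every drug-treated array than on any vehicle array, whereas the Tfap2a drug and vehicle arrays overlap.

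Kit, the receptor tyrosine kinase for stem cell factor on melanoblasts and mast cells, showed the largest change of the 8. It read 7.25, 7.12 and 7.64 in pmel-1 combination tumours, 8.23 and 7.23 with dabrafenib and 7.88 and 7.86 with trametinib, against 9.42 and 9.66 with vehicle. Control recipients read 7.69 and 7.02 with both drugs, against 9.57 and 9.07 with vehicle. Every treated array was lower than every vehicle array, while dabrafenib replicate 1 lay nearest to the vehicle tumours. Kit was 4.62-fold lower in pmel-1 recipients (-2.21 ± 0.29, adjusted p = 0.000127) and 3.90-fold lower in control recipients (-1.96 ± 0.31, adjusted p = 0.000667).

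The second Kit probe set (1415900_a_at) also fell, by 1.22 where pmel-1 cells were given and by 0.85 where control cells were (adjusted p = 0.000386 and 0.0082 over all probe sets), although it was under 5.79 on every combination array, so these sizes are not exact. Mast cells also depend on Kit. Of 8 mast cell markers, Gata2 (mean 7.75), Hdc (6.32) and Tpsb2 (6.03) were above 5.79 on all 13 arrays and Mcpt4 (5.80) on 7, while Cpa3, Cma1, Fcer1a and Ms4a2 were under it on every array, and 0 of the 4 tested passed with the combination across recipients, beside 52.6% of all genes. The summed linear level of the 8 was 493 to 574 in pmel-1 and 464 to 495 in control combination tumours, against 501 to 514 in pmel-1 and 507 to 585 in control vehicle tumours. The part of mast cells in the Kit result was not tested.

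Mc1r, the melanocortin receptor whose signal switches melanocytes to dark pigment, rose with the combination in both kinds of recipient and with dabrafenib. It read 10.07, 10.05 and 9.48 in pmel-1 combination tumours, 9.98 and 10.05 with dabrafenib and 9.35 and 9.12 with trametinib, against 9.15 and 8.97 with vehicle. Control recipients read 9.55 and 9.36 with both drugs, against 8.44 and 8.15 with vehicle. The trametinib and vehicle arrays of pmel-1 recipients overlapped, and the combination arrays lay above vehicle in each kind of recipient. Mc1r rose by 0.80 ± 0.17 with both drugs in pmel-1 recipients (1.75-fold, adjusted p = 0.0031) and by 1.16 ± 0.19 in control recipients (2.24-fold, adjusted p = 0.000799). With the 3′ minus 5′ difference as a covariate the pmel-1 value was 0.53 (adjusted p = 0.162).

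Macrophage markers, taken as a sum, were also higher with the combination and with dabrafenib than with vehicle. Single arrays did not always follow Mc1r. In control combination tumours replicate 3 had the lower Mc1r (9.36 against 9.55) but the higher Csf1r (10.10 against 9.43). With trametinib replicate 1 was the higher in both, at 9.35 against 9.12 and 10.16 against 9.42. Their summed linear level over the 8 listed was 7375 to 10257 in pmel-1 combination, 6755 to 11845 in dabrafenib and 3425 to 4967 in trametinib tumours, against 3139 to 3574 with vehicle. In control recipients it was 3788 to 4853 with both drugs, against 2301 to 2321 with vehicle. Of the 7 macrophage markers tested 6 rose and 0 fell with the combination across recipients, beside 28.1% of all genes up and 24.5% down. Among them C1qa rose by 1.26 ± 0.19 and Csf1r by 1.55 ± 0.21. In pmel-1 recipients Mrc1 read 8.95, 9.62 and 9.25 with the combination, against 9.07 and 9.50 with vehicle. With trametinib 0 of the 7 rose and 1 fell, beside 19.5% of all genes up and 19.1% down. The part of these cells in the Mc1r result was not tested.

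Ednrb, the endothelin receptor of migrating melanoblasts, had the largest rise. It read 11.14, 11.33 and 11.47 in pmel-1 combination tumours, 11.21 and 11.25 with dabrafenib and 11.33 and 11.19 with trametinib, against 10.06 and 9.87 with vehicle. Control recipients read 11.85 and 11.60 with both drugs, against 9.79 and 9.87 with vehicle. The drug-treated arrays stood more than 1 log2 unit above all vehicle arrays, and the control combination arrays were the highest of the 13. Ednrb rose by 1.34 ± 0.12 in pmel-1 (2.54-fold, adjusted p = 1.34e-05) and by 1.90 ± 0.13 in control recipients (3.74-fold, adjusted p = 4.22e-06).

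Ednrb and Sox10 are also genes of Schwann cells. Of 7 Schwann cell markers 4 had a probe set with their symbol alone, and of these Mbp (2.28 ± 0.12) and S100b (1.70 ± 0.11) rose with the combination across recipients while Mag (0.08 ± 0.10) and Gfap (-0.16 ± 0.10) did not pass. Their summed linear level was 12088 to 12626 in pmel-1 and 12373 to 13882 in control combination tumours, against 4348 in pmel-1 and 2187 to 3276 in control vehicle tumours. Mbp and S100b (mean 11.90 and 12.14) carry this sum, beside 6.01 for Mag and 6.59 for Gfap, so it repeats the genes that rose. S100b is also a gene of melanocytes, and the part of Schwann cells in the result was not tested. Of 7 endothelial markers 2 rose and 2 fell, beside 28.1% of all genes up and 24.5% down.

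In the separate comparisons the combination called 6 of 8 members in pmel-1 recipients (5 up, 1 down), against 45.6% of all genes (24.3% up, 21.2% down), and 5 of 8 in control recipients (4 up, 1 down), against 35.4% (18.7% up, 16.7% down). The members' median change was 0.42 and 0.37, beside 0.02 and -0.003 over all genes. Both comparisons keep Ednrb, Mc1r, Mitf and Sox10 up and Kit down, while Pax3 passed in pmel-1 recipients alone, and its interaction of 0.25 ± 0.24 did not pass (adjusted p = 0.657). Without the 3 arrays high in Adipoq no count of members called differed from these by more than 1.5 times.

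Each drug alone in pmel-1 recipients gave much of the same pattern. Dabrafenib called 5 of 8 members (4 up, 1 down), against 41.4% of genes (21.8% up, 19.6% down), and trametinib 4 of 8 (3 up, 1 down), against 38.6% (19.5% up, 19.1% down). Both single-drug groups were set against the same 2 vehicle arrays, so their values are given side by side. Ednrb rose by 1.26 ± 0.13 with dabrafenib and by 1.29 ± 0.13 with trametinib, Mitf by 0.45 ± 0.10 and by 0.49 ± 0.10, and Sox10 by 0.46 ± 0.10 and by 0.37 ± 0.10. Kit changed by -1.81 ± 0.31 with dabrafenib and by -1.67 ± 0.31 with trametinib. The adjusted p of these 8 values ran from 4.53e-05 to 0.0147. The Sox10 call with trametinib was lost without either trametinib array or without vehicle replicate 1 (0.32 to 0.39, adjusted p from 0.057 to 0.0989). Without the 3 arrays high in Adipoq, Sox10 passed with neither dabrafenib (0.46, adjusted p = 0.0519) nor trametinib (0.39, adjusted p = 0.0837). With all probe sets of a gene averaged, Mitf was at 0.13 with dabrafenib (adjusted p = 0.416) and 0.11 with trametinib (adjusted p = 0.487), and Sox10 at 0.29 (adjusted p = 0.318) and 0.09 (adjusted p = 0.787), so these 4 calls were lost.

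Mc1r rose by 0.95 ± 0.19 with dabrafenib (adjusted p = 0.0024; 0.69 and adjusted p = 0.0896 with the 3′ minus 5′ covariate), and its 0.17 ± 0.19 with trametinib did not pass (adjusted p = 0.529). Pax3, at 0.42 ± 0.18 and 0.36 ± 0.18, passed with neither (adjusted p = 0.0765 and 0.128), but passed for dabrafenib without pmel-1 combination replicate 1 or either trametinib array, and for trametinib without its replicate 2 (0.62, adjusted p = 0.0278). Tfap2a and Lef1 changes lay between -0.04 and 0.06.

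**Figure D2:**
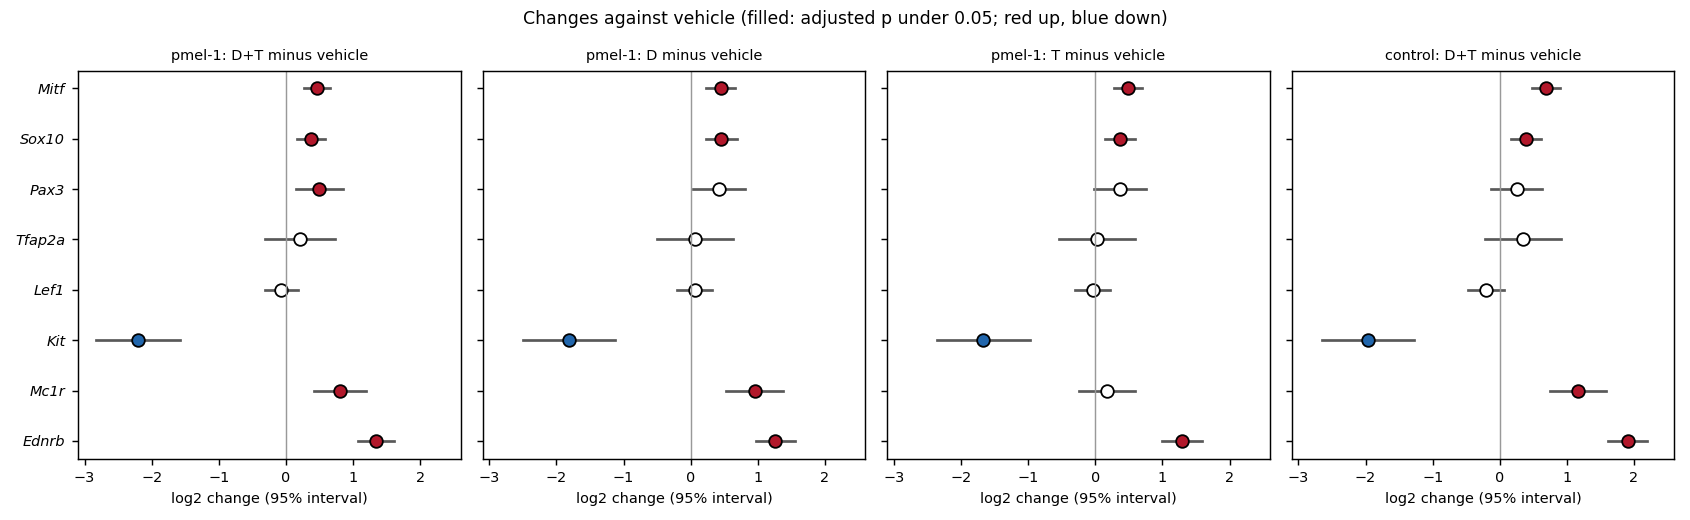
Log2 change from vehicle (horizontal axis) of each member (rows) with its 95% interval, in 4 panels for the combination, dabrafenib and trametinib in pmel-1 recipients and the combination in control recipients; filled points have an adjusted p under 0.05, red for a rise and blue for a fall. Kit lies between -2.21 and -1.67 and Ednrb between 1.26 and 1.90, and Mc1r is filled in all panels but the trametinib one.

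Set directly against each other, the drugs called 0 of 8 members. Dabrafenib minus trametinib called 0.776% of genes, with 1 member at an unadjusted limma p under 0.05. That member was Mc1r, at 9.98 and 10.05 with dabrafenib against 9.35 and 9.12 with trametinib (0.78 ± 0.19, 95% interval 0.36 to 1.20, adjusted p = 0.103), and its second probe set (1422069_at) gave 8.04 and 8.04 against 7.23 and 7.35 (0.75 ± 0.16, adjusted p = 0.0801). The groups did not overlap at either probe set. Without pmel-1 combination replicate 3, which enters only through the shared variance, the first passed (adjusted p = 0.0386).

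Combination minus trametinib called 1.1% of genes and 0 members, with Mc1r at 0.63 ± 0.17 (adjusted p = 0.122). It became 0.82 (adjusted p = 0.0319) without combination replicate 3, whose 9.48 lay apart from 10.07 and 10.05. Kit differed by -0.54 ± 0.29 (95% interval -1.17 to 0.10, adjusted p = 0.495) in that comparison. Combination minus dabrafenib called 0% of genes in limma (246 genes, 1.78%, had an unadjusted p under 0.05), and 0 members passed at either threshold. The intervals there ran from -1.03 to 0.24 for Kit, from -0.53 to 0.24 for Mc1r and from -0.19 to 0.35 for Ednrb, so differences of those sizes are not excluded.

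The kind of transferred cells, pmel-1 against control, called 0 of 8 members in either arm. Under vehicle, pmel-1 minus control called 0% of genes (1822 genes, 13.2%, had an unadjusted limma p under 0.05). Mc1r, at 9.15 and 8.97 in pmel-1 against 8.44 and 8.15 in control tumours, differed by 0.77 ± 0.19 (95% interval 0.35 to 1.19, adjusted p = 0.179) with no overlap. By the probe sets of highest mean it was the only member with an unadjusted p under 0.05. Its second probe set read 7.62 and 7.35 against 6.85 and 6.70 (0.71 ± 0.16, adjusted p = 0.149). The remaining 7 members differed by -0.09 to 0.45 at these highest-mean probe sets, Tfap2a being the highest. Other probe sets of some members lay further apart. Ednrb 1423594_a_at read 8.50 and 8.49 against 7.64 and 7.52, and Mitf 1422025_at 8.91 and 8.71 against 8.09 and 8.13. Sox10 1424985_a_at read 11.29 and 11.33 against 11.31 and 11.26.

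Under the combination, pmel-1 minus control called 4.24% of genes. Ednrb, at 11.14, 11.33 and 11.47 in pmel-1 against 11.85 and 11.60 in control tumours, was lower by its group mean, at -0.42 ± 0.12 (adjusted p = 0.0734), and Mc1r differed by 0.41 ± 0.17 (adjusted p = 0.174). Both passed without pmel-1 combination replicate 3, Ednrb at -0.50 (adjusted p = 0.0447) and Mc1r at 0.61 (adjusted p = 0.0312). The interaction of transfer and combination, which tests whether the drug response differs between recipients, called 0.283% of genes and 0 members. Its values were -0.56 ± 0.18 for Ednrb (adjusted p = 0.189), -0.36 ± 0.26 for Mc1r, -0.24 ± 0.43 for Kit and -0.22 ± 0.13 for Mitf. With all Ednrb probe sets averaged both Ednrb values passed, at -1.23 for the interaction (adjusted p = 0.0439) and -0.77 for pmel-1 minus control under the combination (adjusted p = 0.0167). RNA quality differed between these arms in the way given above.

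The 20 probe sets did not tell the same story in pmel-1 and control recipients. Probe positions were not used here, so which part of a transcript each probe set reads is not stated. Kit and Mc1r moved alike at both their probe sets, with Mc1r 1422069_at rising by 0.54 ± 0.15 in pmel-1 and by 0.99 ± 0.16 in control recipients under the combination. At Mitf, Pax3, Sox10 and Tfap2a the probe sets had the same direction in control recipients and opposite directions in pmel-1 recipients. For Tfap2a, 1421995_at averaged 6.68 with the combination against 7.05 with vehicle in pmel-1 recipients. In control recipients it averaged 6.76 against 6.68. At Ednrb all 3 were positive in both, but in pmel-1 recipients they differed in size. In these fits over 24579 probe sets, 50.2% were called for the combination across recipients, 44.3% in pmel-1, 31.3% in control recipients, 39.9% for dabrafenib and 37.4% for trametinib. The vehicle groups, pmel-1 and control, also differed at some probe sets. Ednrb 1423594_a_at averaged 8.49 and 7.58 there, Mitf 1422025_at 8.81 and 8.11, and Pax3 1420389_at 10.23 and 9.78. The highest-mean probe sets of these genes averaged 9.97 and 9.83, 12.97 and 12.94, and 10.05 and 10.15. The 3′ minus 5′ differences were 0.22 and 0.18 on the pmel-1 and 0.28 and 0.25 on the control vehicle arrays.

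Ednrb showed the widest gap. Its 1423594_a_at read 8.47, 8.66 and 8.49 in pmel-1 combination tumours, 9.00 and 8.59 with dabrafenib and 8.30 and 9.17 with trametinib, against 8.50 and 8.49 with vehicle. Control recipients read 9.69 and 9.42 with both drugs, against 7.64 and 7.52 with vehicle. The change was thus 0.05 ± 0.21 in pmel-1 recipients (adjusted p = 0.889) and 1.97 ± 0.23 in control recipients (adjusted p = 0.000126), where 1437347_at gave 1.34 and 1.90. The third probe set, 1426314_at, changed by 0.52 ± 0.24 (adjusted p = 0.0995) and by 1.73 ± 0.26 (adjusted p = 0.000574).

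For 1423594_a_at the interaction passed (-1.93 ± 0.32, adjusted p = 0.042; 0.358% of probe sets called), as did pmel-1 minus control under the combination (-1.01 ± 0.21, adjusted p = 0.0335; 3.23% called). Neither held with the 3′ minus 5′ difference as a covariate, at -1.43 (adjusted p = 0.314) and -0.55 (adjusted p = 0.825). The interaction was also lost without any of 8 arrays, namely pmel-1 combination replicate 1 or 3 and every array of the pmel-1 vehicle, control combination and control vehicle groups (-2.06 to -1.79, adjusted p from 0.0588 to 0.264). The difference under the combination was lost without pmel-1 combination replicate 1 or 2 or any array of those same 3 groups (-1.15 to -0.88, adjusted p from 0.0521 to 0.269).

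At Mitf, 1422025_at changed by -0.36 ± 0.18 in pmel-1 recipients (adjusted p = 0.137) and rose by 0.61 ± 0.20 in control recipients (adjusted p = 0.0369). At Pax3, 1430335_a_at fell in pmel-1 recipients (-0.71 ± 0.26, adjusted p = 0.0461), while 1420389_at rose in control recipients (0.61 ± 0.21, adjusted p = 0.0485), so that the sign of the Pax3 response in pmel-1 recipients depends on the probe set. At Sox10, 1425369_a_at changed by -0.33 ± 0.34 in pmel-1 and by 0.74 ± 0.38 in control recipients, and passed in neither. Tfap2a 1421995_at fell with trametinib (-0.56 ± 0.19, adjusted p = 0.0393), a call that the other 2 Tfap2a probe sets did not share. Averaging all probe sets of a gene left 3 members called for the combination in pmel-1 recipients, namely Ednrb, Kit and Mc1r. The 3′ minus 5′ covariate also left 3, but these were Ednrb, Kit and Mitf.

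**Figure D3:**
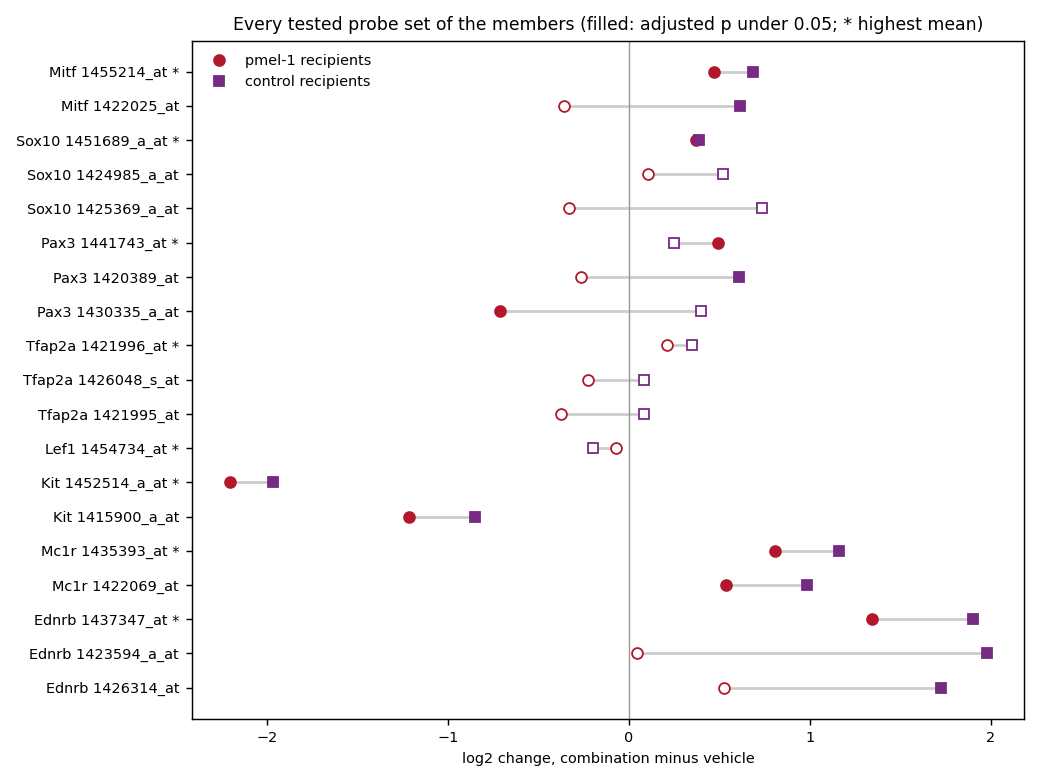
Log2 change with the combination (horizontal axis) for each of the 19 tested probe sets of the members (rows), in pmel-1 recipients (red circles) and control recipients (purple squares), joined by a line; filled symbols have an adjusted p under 0.05 and an asterisk marks the probe set of highest mean. The squares of Ednrb, Mitf, Pax3, Sox10 and Tfap2a all lie right of 0, while several of their circles lie at or left of it.

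The distance between 2 probe sets of a gene can be set beside the RNA measure on each array. Ednrb 1437347_at minus 1423594_a_at was 2.67 to 2.98 in pmel-1 combination, 2.22 to 2.66 in dabrafenib and 2.02 to 3.03 in trametinib tumours, against 1.38 to 1.57 in pmel-1 vehicle tumours. In control recipients it was 2.17 to 2.18 with both drugs, against 2.15 to 2.34 with vehicle. The Ednrb gap was widest in single trametinib and combination arrays and narrowest with pmel-1 vehicle. For Pax3, 1441743_at minus 1430335_a_at was 1.72 to 1.91 in pmel-1 combination and 0.97 to 2.35 in trametinib tumours, against 0.44 to 0.72 with vehicle. In control recipients the Pax3 gap was 0.76 to 0.98 with both drugs, against 0.94 to 1.09 with vehicle. The part of RNA quality in these gaps was not tested.

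**Figure D4:**
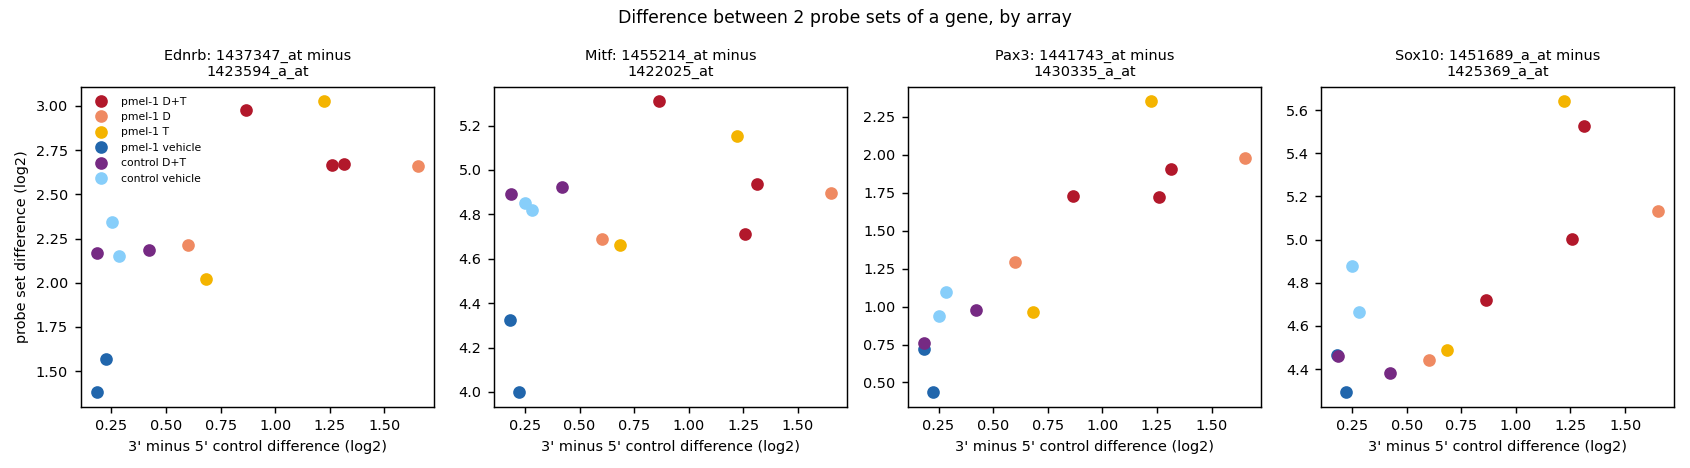
For Ednrb, Mitf, Pax3 and Sox10, the difference between 2 probe sets of the gene (vertical axis, log2) is plotted against the mean 3′ minus 5′ difference of the array controls (horizontal axis, log2), with 1 point per array coloured by group. The pmel-1 drug arrays fill the right side, and for Ednrb the pmel-1 vehicle arrays lie lowest.

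The ligands of the 3 receptors were followed with their partners. Of 12 listed, 9 were tested, of which 1 rose and 1 fell with the combination across recipients, beside 52.6% of all genes. Atrn, the attractin co-receptor of the agouti signal, rose (0.69 ± 0.10, adjusted p = 0.00014), and Edn1, endothelin 1, fell (-0.35 ± 0.11, adjusted p = 0.0213). Kitl, the Kit ligand (-0.02 ± 0.21), Edn3, the endothelin of melanoblast development (-0.31 ± 0.17), and Pomc, the melanocortin precursor (-0.11 ± 0.06), did not pass. Pomc fell with trametinib (-0.36 ± 0.09, adjusted p = 0.0107). Edn2 stayed under 5.79 on all arrays, and Asip, the agouti antagonist of Mc1r, is not named alone by a probe set in the annotation used.

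The genes that Mitf is known to drive moved with it in part. For these and the following lists the shares of all genes are 28.1% up and 24.5% down with the combination across recipients. Of 13 pigment genes tested 11 rose and 0 fell with the combination across recipients (9 rose in each kind alone), with a median change of 0.89 beside 0.01 over all genes tested. Myo5a (2.19 ± 0.10) and Rab27a (2.33 ± 0.12), which carry melanosomes to the cell edge, and Gpr143 (3.80 ± 0.20) and Trpm1 (3.80 ± 0.20), a melanosome receptor and a cation channel, had the smallest p. Mlana (0.14 ± 0.09) and Oca2 (-0.71 ± 0.35) did not pass. Of 10 other genes linked to Mitf 6 rose and 3 fell (52.6% of all genes called). Met, the receptor for hepatocyte growth factor, rose by 2.17 ± 0.12, Ppargc1a, a mitochondrial coactivator, by 2.10 ± 0.17 and the cell cycle kinase gene Cdk2 by 1.18 ± 0.12, whereas the RNase gene Dicer1 fell (-0.59 ± 0.09). Of Mitf's relatives, Tfeb (0.77 ± 0.08) and Tfe3 (0.42 ± 0.07), regulators of lysosomes, rose, and Tfec (0.42 ± 0.20) did not pass.

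Most neural crest factors other than the members did not pass. Of 14 tested 1 rose and 4 fell with the combination across recipients (52.6% of all genes called), with a median of 0.04. Tfap2b, the close relative of Tfap2a, fell (-2.34 ± 0.26, adjusted p = 2.38e-05), as did Twist1 (-1.08 ± 0.19) and Snai1 (-1.02 ± 0.12, under 5.79 on every combination array), factors of epithelial to mesenchymal transition, while Zeb2 rose (0.71 ± 0.15). Of 7 Wnt and TCF genes 4 rose and 2 fell, beside 52.6% of all genes called. The feedback target Axin2 rose by 1.48 ± 0.15 and Ctnnb1, beta-catenin itself, by 0.28 ± 0.06, while Tcf7l1 (-0.54 ± 0.08), a relative of Lef1, and the receptor ligase gene Znrf3 (-0.60 ± 0.17) fell.

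Of 10 cyclic AMP response genes, the branch downstream of Mc1r, 4 rose and 3 fell (52.6% of all genes called), with a median of -0.05. Crem (0.75 ± 0.10) and the phosphodiesterase gene Pde4d (0.47 ± 0.08) rose, and its relative Pde4b (-0.47 ± 0.10) and the kinase gene Sik1 (-0.74 ± 0.15) fell. Of 8 ERK output genes, which read the pathway the drugs block, 0 rose and 6 fell, beside 24.5% of all genes down. Etv4 (-3.29 ± 0.08), Egr1 (-2.42 ± 0.23), Spry4 (-3.07 ± 0.43) and Spry2 (-1.05 ± 0.26) fell. 

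Of the other marker lists, 2 of 6 T cell markers rose with the combination across recipients, with 4 rising after pmel-1 transfer (45.6% of all genes called) and 0 after control transfer (35.4%). For the interaction 1 of the 6 passed, Cd3g (2.30 ± 0.37, adjusted p = 0.0498), and across recipients 0 of 5 muscle, 0 of 3 keratinocyte and 0 of 3 adipocyte markers passed. The summed T cell level was 1199 to 1611 in pmel-1 and 962 to 1219 in control combination tumours, against 868 to 873 in pmel-1 and 888 to 1270 in control vehicle tumours. Thy1, of the highest mean (9.28), weighs most in this sum, and read 9.70 and 9.73 in replicate 3 of control combination and vehicle. Cd3d read 7.30, 7.45 and 6.92 in pmel-1 and 5.61 and 5.71 in control combination tumours. Cd8a read 6.46, 6.52 and 6.49 against 6.51 and 6.50. Lef1, which T cells also express, passed in none of the 11 comparisons.

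The genes whose log2 values followed each member most closely over the 13 arrays are given as a description, since the arrays share the drug effect that most of these genes carry. Mitf ran with Kctd12b (Pearson r = 0.98), with Ednrb of this set (0.98) and with Wdfy1 (0.98), and Ednrb with Hps3, Sgcb and Pcolce2 (0.99 each). Kit ran with Maff (0.98), Lrrc41 (0.98) and Dhh (0.97), Sox10 with Pex26, Cers6 and Sptbn1 (0.96 each), and Mc1r with Fbrs (0.95), Ldhd (0.95) and S100a4 (0.94). Pax3 was closest to Itsn2 (0.96), Lasp1 (0.96) and Cog7 (0.95), Tfap2a to Arhgap29 (0.94), Klf6 (0.91) and Dusp10 (0.90), and Lef1 to Agbl4, Aanat and Tnni2 (0.92 each). Among the members themselves r was -0.91 for Kit with Ednrb, 0.92 for Sox10 with Mitf, 0.67 for Mc1r with Mitf and 0.26 for Tfap2a with Mitf.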

How the data were processed

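SM1 tumour RNA was measured on 13 Affymetrix mouse arrays. What the authors deposited is log2 intensity for each probe set, computed with RMA and the affy package per the submitters' processing notes, without versions; array maxima of 14.94 to 15.06 and a largest gap of 0.33 between arrays at the same quantile fit that unit. Precision is limited by the number of arrays. The annotation gives, among 45101 probe sets, 64 array controls, 34945 with 1 gene symbol, 932 with several and 9160 with none, and 0 symbols needed updating. Per symbol the probe set with the highest mean was kept, and genes above the 40th percentile (5.79) in at least 2 arrays were tested.

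limma 3.58.1 (R 4.3.3; lmFit and eBayes) fitted the 6 group means to all 13 arrays at once, with Benjamini-Hochberg adjustment over 13785 genes in each of 11 contrasts, and separately over 24579 probe sets. The fit was tested on simulated data in which 200 genes were changed by 1 log2 unit. It recovered 53.5% of them for the interaction. For the other contrasts it recovered from 78.5% (dabrafenib minus trametinib) to 91% (combination across recipients). Of the genes called, from 0.9% (interaction) to 7.8% (trametinib minus vehicle) were false. The simulated noise was independent between genes and arrays and held no RNA quality difference, so these rates need not hold for the tumours. Alternatives were no filter, the mean of all probe sets, array centring, array weights, only the arrays compared, the 3′ minus 5′ difference as a covariate, the replicate number as a block, and omission of arrays. Arrays of a group correlated at 0.983 to 0.994 over genes (8 pairs).

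The members and gene lists were chosen with earlier results of these data known, as were most tests. Named genes are all members with every probe set, up to 4 genes per pathway list with the smallest p for the combination across recipients, the receptors' ligands, markers by level, and the 3 genes most correlated with each member. Csf1r, Mrc1, Cd3d, Cd3g, Cd8a, Mag, Gfap, Mlana, Oca2, the mast cell markers and the markers under the filter were named after their values were seen. Promoters are from RefSeq (GRCm38.p6).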

Additional observations from a re-analysis of the deposited data

Results flagged for a closer look

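Ednrb probe set 1423594_a_at stood out because its response to the combination differed between recipients by a test of the difference itself. The effect in pmel-1 minus that in control recipients was -1.93 ± 0.32 (limma adjusted p = 0.042 over all probe sets). The combination arrays read 8.47, 8.66 and 8.49 in pmel-1 recipients, against 8.50 and 8.49 with vehicle, and 9.69 and 9.42 in control recipients, against 7.64 and 7.52 with vehicle. The values of the other Ednrb probe sets were -0.56 ± 0.19 (1437347_at, adjusted p = 0.158) and -1.20 ± 0.35 (1426314_at, adjusted p = 0.124). With the 3′ minus 5′ difference as a covariate the value was -1.43 (adjusted p = 0.314).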

How the results depend on the processing

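Over all members, comparisons and alternatives 2013 values were recomputed. Of these, 1970 kept their direction and side of the threshold or stayed uncalled (92 of these with the opposite sign). The 1970 include comparisons that called no member, and omissions of arrays outside a comparison, which leave its value unchanged. Of the others 32 lost the call, 10 gained it and 1 reversed. The reversed value was Pax3 with the combination in pmel-1 recipients, at -0.16 (adjusted p = 0.415) with all probe sets averaged. The cause was not tested. The number of members called fell to 3 for the combination in pmel-1 recipients with all probe sets averaged and to 3 with the 3′ minus 5′ covariate, and with averaging it was 3 for dabrafenib, 2 for trametinib, 1 (Ednrb) for pmel-1 minus control under the combination and 1 (Ednrb) for the interaction. Omitting each array in turn gave 5 to 6 for the combination across recipients, 4 to 6 in pmel-1 and 4 to 5 in control recipients, 5 to 6 for dabrafenib, 3 to 4 for trametinib, 0 to 1 for dabrafenib minus trametinib, 0 to 1 for combination minus trametinib, 0 to 2 for pmel-1 minus control under the combination and 0 to 0 otherwise. Deviations of same-numbered arrays from their group means correlated at r from -0.47 to 0.45 over 23 pairs. In a group of 2 arrays these deviations mirror each other, so this check cannot decide whether the number pairs the arrays. With the replicate block, members called numbered 5 across recipients, 5 in pmel-1 and 5 in control recipients, 5 for dabrafenib and 4 for trametinib, and Pax3 lost its calls (0.37, adjusted p = 0.0546, and 0.51, adjusted p = 0.0543). For Ednrb 1423594_a_at, in settings chosen after seeing the data, the block gave -1.80 for the interaction (adjusted p = 0.136) and ended the call under the combination (adjusted p = 0.0911).

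Counts of all genes called moved by over 1.5 times in these cases, each given against the count of the fit in the report, which identifies the comparison once named. With the 3′ minus 5′ covariate they were 2756 against 6282 (combination, pmel-1), 2511 against 5709 (dabrafenib), 3371 against 5323 (trametinib), 46 against 584 (pmel-1 minus control, combination), 0 against 39 (interaction), 191 against 107 (dabrafenib minus trametinib) and 2 against 0 (pmel-1 minus control, vehicle). Without the 3 arrays high in Adipoq they were 3307 against 5709, 331 against 584, 85 against 39, 27 against 107 and 1 against 0 (dabrafenib, pmel-1 minus control under the combination, interaction, dabrafenib minus trametinib, pmel-1 minus control under vehicle). The block gave 12 against 151 (combination minus trametinib), 24 against 107, 1 against 39 and 232 against 584. Array weights gave 286 against 151, 65 against 39 and 5 against 0, the arrays compared alone 0 against 107, 90 against 39, 378 against 584 and 2 against 0, centring 67 against 39 and 5 against 0, and no filter 3 against 0. Omitting each array in turn gave 0 to 318 genes for combination minus trametinib, 0 to 283 for dabrafenib minus trametinib, 119 to 1206 for pmel-1 minus control under the combination, 0 to 48 under vehicle, 0 to 84 for the interaction and 3643 to 5813 for dabrafenib against vehicle.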
